A study of Mus musculus with 6 samples.

Results

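Genomic imprinting leaves a gene expressed mainly from the copy inherited from 1 parent. The genes described here are 9 imprinted coding genes and the imprinted non-coding RNA H19: Zdbf2, Peg3, Peg10, Igf2r, Grb10, Mest, Snrpn, Impact and Cdkn1c make up the coding set. They were chosen by name, with their difference between the groups below already known, so those differences are given as descriptions with no test. The 10 genes stand among 51912 genes with matched transcripts, of which 13231 had enough counts to be tested. Matched transcripts were found for 9 of the 10, and these 9 passed the low-count filter, Zdbf2 through its pellet counts alone.

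Poly(A) RNA was sequenced in bulk from E14 cells, a mouse embryonic stem cell line, at successive steps of the ribosome purification RAPIDASH. The 3 eluate libraries hold RNA from ribosomal material that had passed over a sulfhydryl (cysteine-charged) resin and been eluted. The 3 pellet libraries hold RNA extracted directly from the sucrose cushion pellets, the material that is loaded on the resin. All 6 libraries come from cells for which the labels give no genetic change, grown on gelatin with serum and leukemia inhibitory factor and given cycloheximide, an inhibitor of translation elongation, shortly before harvest. Each cushion pellet was divided between direct extraction and the resin, but the labels do not say that equal numbers mark the same pellet or a culture of its own. A p-value here therefore covers only the scatter among the 6 libraries, which may be technical. The comparison asks what the resin step adds to or removes from the messages of the pellet.

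Imprinted genes are best known from growth of the embryo and placenta, where paternally expressed genes often promote growth and maternally expressed genes often restrain it. Each sits in a domain whose parental copies carry different DNA methylation at a control region. In embryonic stem cells such marks are kept by zinc finger proteins with the corepressor Trim28 and by the maintenance methyltransferase Dnmt1, and they can be lost in culture. The values here count both parental copies together.

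The libraries held 10019627 to 11642883 estimated counts in eluates and 7837621 to 10438536 in pellets. Pellet 1 stood apart from the other pellets on the first principal component, with a score of 19.1 against 42.9 and 45.3, while eluates 1 to 3 scored -35.1, -30.5 and -41.8. Member values without pellet 1 are therefore given below. The summed TPM (abundance scaled to transcript length and to a common total) of 8 stem cell markers was 14574 to 14664 in eluates and 11112 to 12430 in pellets. Fibroblast markers summed to 9.61 to 13.3 TPM in eluates and 6.00 to 9.83 TPM in pellets, and 4 of those 8 genes had 3 counts or fewer over all libraries. The 6 primitive endoderm markers summed to 7.18 to 8.24 TPM in eluates and 6.33 to 8.92 TPM in pellets, and the 6 mesoderm and neural markers to 8.22 to 8.49 TPM in eluates and 8.52 to 9.67 TPM in pellets. The part of these cell types in the results was not tested.

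The members differ widely in base composition, and the G and C content of whole messages moved with the eluate and pellet difference across all genes. To show the range within coding sequence, which need not equal that of the whole message, a stretch of 120 bases from each of 4 members is printed. Each is the first window whose G and C content equals the median over that coding sequence, read from GENCODE mouse release M21, with G and C in capitals.
Zdbf2: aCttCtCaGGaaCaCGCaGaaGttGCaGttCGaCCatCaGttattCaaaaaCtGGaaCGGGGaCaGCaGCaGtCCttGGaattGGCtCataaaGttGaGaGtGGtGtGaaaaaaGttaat
Igf2r: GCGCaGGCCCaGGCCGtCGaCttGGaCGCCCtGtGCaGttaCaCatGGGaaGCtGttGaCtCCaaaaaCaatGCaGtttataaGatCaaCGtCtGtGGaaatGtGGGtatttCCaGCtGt
Snrpn: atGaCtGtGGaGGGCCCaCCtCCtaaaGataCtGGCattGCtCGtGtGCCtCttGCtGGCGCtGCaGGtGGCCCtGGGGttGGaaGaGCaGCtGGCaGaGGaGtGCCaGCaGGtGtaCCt
Cdkn1c: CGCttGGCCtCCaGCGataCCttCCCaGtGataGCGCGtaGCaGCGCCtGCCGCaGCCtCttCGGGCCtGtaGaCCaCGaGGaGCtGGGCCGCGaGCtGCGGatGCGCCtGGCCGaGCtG
The windows held 43.3% G and C in Zdbf2, 50.8% in Igf2r, 60.8% in Snrpn and 69.2% in Cdkn1c. Over the whole coding sequence the content was 46.2% in Zdbf2 (7479 nt), 51.7% in Igf2r (7449 nt over a message of 48 exons), 55.8% in Snrpn (720 nt) and 69.1% in Cdkn1c (1005 nt). The Zdbf2 gene lies on chromosome 1, Igf2r on 17, and Snrpn and Cdkn1c on 7 with Peg3 and H19. Peg10 and Mest lie on chromosome 6, Grb10 on 11 and Impact on 18.

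Of the 8 members whose deposited counts could be followed in every library, 5 were called lower in eluates (edgeR quasi-likelihood test, adjusted p threshold 0.05), against 28.2% of all genes tested, and 2 were higher, against 24.5%. In all, 52.7% of genes tested were called. Nothing is read from the members' counts, since the members were chosen on this contrast. Of all calls, 46.5% were higher in eluates, a share that was 56.0% with upper-quartile scaling and 35.0% on the log2(TPM + 1) scale. The 3 eluates lay below all 3 pellets in CPM (read counts scaled to a common library total, so a share of the library) for Peg3, Igf2r, Impact, Peg10 and Grb10, as for 31.2% of genes tested, and above them for Mest, Snrpn and Cdkn1c, as for 29.1%. CPM are shares, and in bulk RNA fewer cells with a message and less of it per cell cannot be told apart. The members' estimated counts ran from 67 for Peg3 in eluate 3 to 2586 for Snrpn in eluate 1.

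**Figure D1:**
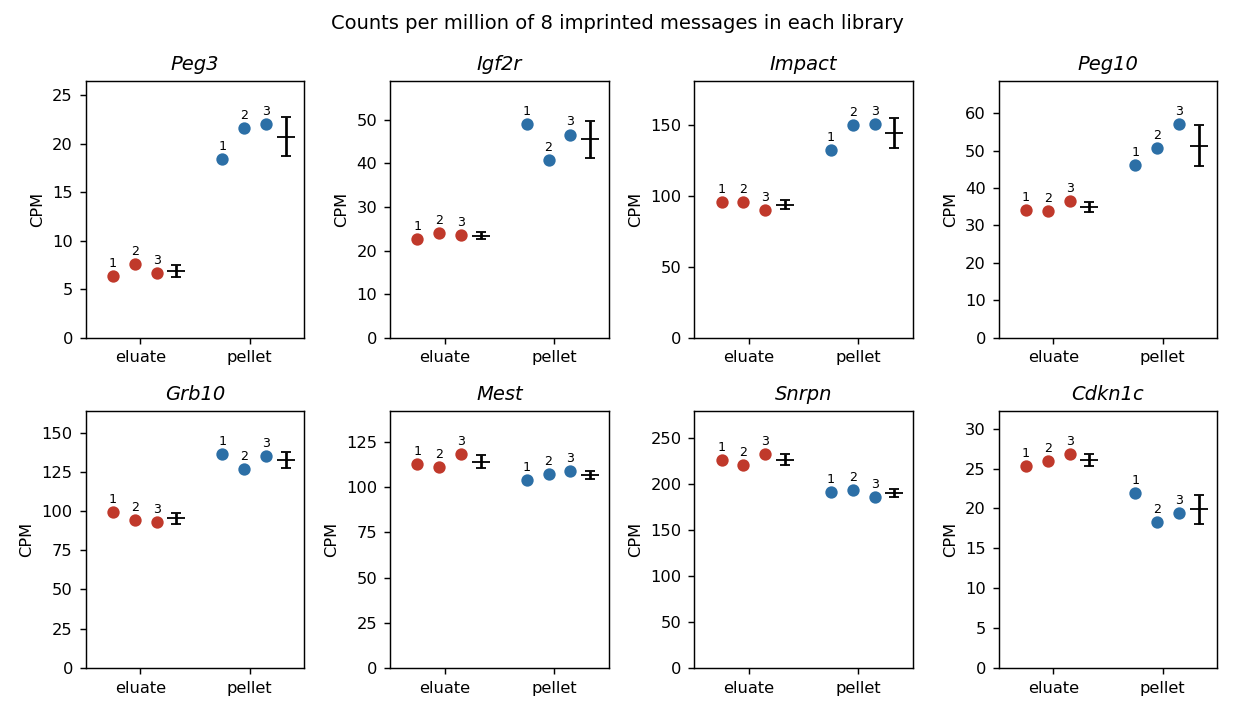
Scaled counts (CPM) of 8 imprinted messages in eluates 1 to 3 (red) and pellets 1 to 3 (blue), with the mean and SD beside each group. The eluates lie below the pellets for Peg3, Igf2r, Impact, Peg10 and Grb10 and above them for Mest, Snrpn and Cdkn1c; vertical scales differ between panels and start at 0.

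Peg3, a paternally expressed zinc finger protein linked in mice to growth and maternal care, had 6.36, 7.55 and 6.71 CPM in eluates 1 to 3, against 18.4, 21.7 and 22.0 CPM in pellets 1 to 3. The eluates lay far below every pellet, and pellet 1 was the lowest pellet. The means were 6.87 ± 0.610 CPM in eluates and 20.7 ± 1.99 CPM in pellets (SD, n = 3 each), and the fitted log2 fold change, eluate over pellet, was -1.59 ± 0.14 (SE). Of all genes tested, 1.94% had a lower log2 fold change. Without pellet 1 the Peg3 log2 fold change was -1.67. Its single quantified transcript is 8694 nt long, longer than 97.4% of genes tested, with 46.9% G and C. Peg3 was the lowest of the 8 members.

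Igf2r, the maternally expressed receptor that binds insulin-like growth factor 2 and mannose 6-phosphate and carries both to lysosomes, had 22.7, 24.1 and 23.5 CPM in eluates 1 to 3, against 49.1, 40.8 and 46.6 CPM in pellets 1 to 3. The eluates were close to each other and all below the pellets, of which pellet 2 was the lowest. The means were 23.4 ± 0.725 CPM in eluates and 45.5 ± 4.26 CPM in pellets (SD, n = 3 each). The log2 fold change was -0.96 ± 0.10 (SE), and -0.90 without pellet 1. The Igf2r message is 8887 nt long with 51.2% G and C, close to the median of 50.8% over genes tested.

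Grb10, an adaptor protein that restrains signalling by the insulin and insulin-like growth factor receptors, is maternally expressed in most mouse tissues. It had 99.4, 94.1 and 92.9 CPM in eluates 1 to 3, against 136, 127 and 135 CPM in pellets 1 to 3. No eluate reached the lowest pellet. The log2 fold change was -0.47 ± 0.070 (SE), with means of 95.5 ± 3.48 CPM in eluates and 133 ± 5.10 CPM in pellets (SD, n = 3 each), for a message of 5042 nt and 48.4% G and C. Without pellet 1 the Grb10 value was -0.45, and those of Mest and Snrpn, described below, were 0.076 and 0.25.

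Impact, a paternally expressed protein in mice that binds Gcn1 and so limits activation of the stress kinase Gcn2, had 95.4, 95.5 and 89.99 CPM in eluates 1 to 3, against 132, 150 and 151 CPM in pellets 1 to 3. Pellet 1 lay between the eluates and the other pellets. The means were 93.6 ± 3.16 CPM in eluates and 144 ± 10.5 CPM in pellets (SD, n = 3 each), and the log2 fold change was -0.62 ± 0.075 (SE), or -0.68 without pellet 1. Impact had the lowest G and C content of the 8 members, 42.1%, lower than in all but 9.71% of genes tested.

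Peg10, a paternally expressed gene derived from a retrotransposon and required for the mouse placenta, had 34.3, 33.9 and 36.5 CPM in eluates 1 to 3, against 46.2, 50.7 and 57.2 CPM in pellets 1 to 3. The eluates were tight and lay below all pellets, which spread more widely. The means were 34.9 ± 1.42 CPM in eluates and 51.4 ± 5.53 CPM in pellets (SD, n = 3 each), and the log2 fold change was -0.56 ± 0.096 (SE), or -0.63 without pellet 1. Peg10 is one of few cellular messages known to use a -1 ribosomal frameshift, at a slippery heptamer whose neighbourhood is shown with the heptamer in capitals.
Peg10 heptamer: aattcgccgccGGGAAACtccccggccccg
In transcript ENSMUST00000176204 these 30 bases are positions 1466 to 1495, and the annotated coding sequence ends at position 1498, 15 nt after the heptamer. The heptamer starts there on the third base of an annotated codon. In transcript ENSMUST00000176551 the same heptamer, at positions 1377 to 1383, lies upstream of the annotated coding sequence, which starts at 1476. The letters GGGAAAC, searched on the message strand alone, also occur in 9293 of 58797 protein-coding transcripts of the annotation (15.8%). The letters alone therefore do not mark a frameshift site, and use of the one in Peg10 was not tested here.

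The split of Peg10 counts between these transcripts did not follow the groups. Transcript ENSMUST00000176204 took 47.5%, 0% and 0% of the gene's estimated counts in eluates 1 to 3, against 28.0%, 23.6% and 47.7% in pellets 1 to 3. Eluate 1 and pellet 3 were alike, and eluates 2 and 3 were listed at 0. The transcripts share 98.5% to 100% of their 31-base stretches, and estimates for near-identical transcripts can exchange reads, so the gene sum is the value used for Peg10. The share of the minor Grb10 transcript (ENSMUST00000109654) ran from 0% to 16.8% in eluates and 0% to 14.2% in pellets. For Mest (ENSMUST00000124665) it ran from 2.35% to 13.2% in eluates and 5.39% to 8.35% in pellets, and for Cdkn1c (ENSMUST00000167912) from 10.3% to 27.4% in eluates and 16.5% to 37.9% in pellets. In each of these genes the ranges of the groups overlapped.

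**Figure D2:**
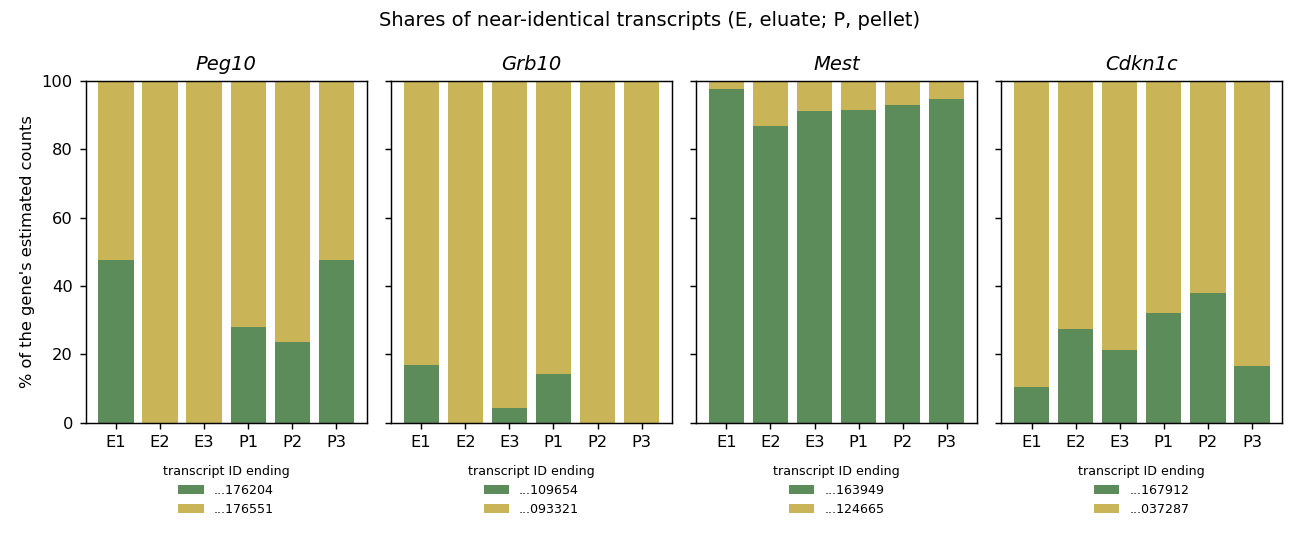
Share of each gene's estimated counts, in percent, taken by near-identical transcripts of Peg10, Grb10, Mest and Cdkn1c in eluates (E1 to E3) and pellets (P1 to P3). The minor Peg10 transcript takes 47.5% in eluate 1 and 0% in eluates 2 and 3, so the split varies within a group.

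Mest, a paternally expressed enzyme-like protein of the endoplasmic reticulum, had 113, 111 and 118 CPM in eluates 1 to 3, against 104, 108 and 109 CPM in pellets 1 to 3. The groups were adjacent, the lowest eluate just above the highest pellet. The log2 fold change was 0.096 ± 0.069 (SE), the nearest to 0 of the 8 members, and it was not called, though it was with upper-quartile scaling (0.19). Its means were 114 ± 3.75 CPM in eluates and 107 ± 2.33 CPM in pellets (SD, n = 3 each). On the opposite strand the neighbouring gene Copg2 holds 34.7% of the 31-base stretches of the main Mest transcript, and the sources used here do not give whether counting used strand, so the Mest value is uncertain.

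Snrpn, the paternally expressed Sm protein SmN, a core component of spliceosomal particles, had 225, 221 and 232 CPM in eluates 1 to 3, against 191, 193 and 186 CPM in pellets 1 to 3. Each eluate lay above each pellet, with little spread in either group. The means were 226 ± 5.80 CPM in eluates and 190 ± 3.83 CPM in pellets (SD, n = 3 each), and the log2 fold change was 0.25 ± 0.063 (SE), with 0.20 and no call on the log2(TPM + 1) scale. Snrpn combines a short message, 1932 nt, with a low G and C content of 44.8%, lower than in all but 19.5% of genes tested. Its coding sequence reaches 55.8% while its 748 nt after the coding sequence hold 32.1%. Transcripts of other genes, chiefly Gm38393, Gm5802, Snurf and Gm35595, hold 25.6% of its 31-base stretches in the same orientation, wherever those genes lie. These named genes were listed at 0 counts in every library.

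Cdkn1c, the maternally expressed p57 inhibitor of cyclin-dependent kinases, had 25.4, 25.9 and 26.8 CPM in eluates 1 to 3, against 21.9, 18.3 and 19.4 CPM in pellets 1 to 3. The eluates lay above all pellets, and pellet 1 was the pellet nearest to them. The means were 26.0 ± 0.738 CPM in eluates and 19.9 ± 1.85 CPM in pellets (SD, n = 3 each), and the log2 fold change was 0.39 ± 0.11 (SE), or 0.47 without pellet 1, with 0.23 and no call on the log2(TPM + 1) scale. Cdkn1c has the highest G and C content of the members, 59.3%, and its codons end in G or C at 79.1% of positions. An antisense gene, Gm44732, holds 28.4% of the 31-base stretches of its main transcript and had 28 to 50 counts in eluates and 19 to 30 in pellets, so reads of the pair may not be separable. Over the 6 libraries the gene nearest to the Cdkn1c pattern of log2 CPM, among 8449 genes averaging 10 CPM or more, was Smurf1, at a Euclidean distance of 0.0542.

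Zdbf2, a paternally expressed zinc finger gene whose loss slows the growth of young mice, could be followed only in part. Of its 3 annotated transcripts, ENSMUST00000029025 (12112 nt) and ENSMUST00000114132 (12629 nt) were quantified under those identifiers and ENSMUST00000126932 (611 nt) was not. The matched pair was listed at 0 in all 3 eluates, against 275, 359 and 240 estimated counts in pellets 1 to 3. ENSMUST00000029025 took 94.9% to 100% of these pellet counts. The pair holds only 0.605 of the mean normalized count of this gene in the authors' deposited table, so the 0 values do not describe the whole gene and no fold is given from them. The authors' deposited table gives Zdbf2 a mean normalized count of 263.8 and a log2 fold change of -1.82 ± 0.18 (SE), which imply 116.5 in eluates and 411 in pellets if the fold is the ratio of group means. The matched transcripts account for 0 of the implied eluate level and 319 of the implied pellet level on the same scale. That leaves 116.5 in eluates and 91.9 in pellets to transcripts not analysed here.

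H19, a maternally expressed long non-coding RNA that is the precursor of a microRNA and is not known to be translated, has 7 annotated transcripts, none of them matched in the library files. Its values per library are therefore not analysed here. The authors' deposited table gives it a mean normalized count of 33.8 and a log2 fold change of -1.47 ± 0.45 (SE), implying 17.9 in eluates and 49.8 in pellets. That table holds only 4892 genes, with a largest adjusted p of 0.0499 (authors' Wald test), so it lists only genes under a threshold. Mest and Cdkn1c are not in it. Cdkn1c, called higher here, was thus not among the genes the authors list under that threshold, and no fold for it is given there. The SE of H19 was the widest of the 8 members in that table. For the 6 members that both sources cover in full, group means implied by the authors' deposited table and those from the matched counts differed by at most 2.25%. The authors' deposited table gives log2 fold changes of -1.57 ± 0.23 for Peg3, -0.97 ± 0.16 for Igf2r, -0.57 ± 0.10 for Impact, -0.53 ± 0.14 for Peg10, -0.46 ± 0.10 for Grb10 and 0.29 ± 0.087 for Snrpn (SE).

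In length-scaled level, the order of the 8 members was the same in both groups. In eluates the mean TPM was 141 ± 6.35 for Snrpn, 48.9 ± 2.205 for Mest, 27.9 ± 0.916 for Impact, 18.8 ± 1.01 for Grb10, 16.7 ± 0.341 for Cdkn1c, 5.404 ± 0.277 for Peg10, 2.43 ± 0.0429 for Igf2r and 0.789 ± 0.0554 for Peg3 (SD, n = 3). In pellets it was 123 ± 11.1 for Snrpn, 48.0 ± 3.14 for Mest, 43.8 ± 1.37 for Impact, 27.5 ± 3.37 for Grb10, 14.1 ± 1.97 for Cdkn1c, 8.27 ± 0.662 for Peg10, 5.08 ± 0.850 for Igf2r and 2.48 ± 0.0841 for Peg3 (SD, n = 3). Neighbours in this order did not overlap in either group, and the closest were Mest, at 45.1 to 51.3 TPM, and Impact, at 42.2 to 44.7 TPM, in the pellets. The scatter between libraries was within or near counting error for Peg3 in eluates, with a coefficient of variation of 8.88% against 11.6% from counting alone. It exceeded counting error most in pellets, at 10.8% against 4.76% for Peg10 and 7.28% against 2.83% for Impact.

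Across all genes tested, the log2 fold change moved with G and C content and with message length, and the members were spread over both. The 5 lower members were the 5 longest messages, 3763 to 8887 nt, and the other 3 were 1898 to 2569 nt, where the median over genes tested is 2772 nt. When each library's smooth trend in both properties was removed, Peg3 stayed at -0.89 ± 0.13 and Igf2r at -0.55 ± 0.088 (SE). The value as fitted minus the value with the trend removed was -0.70 for Peg3 and -0.41 for Igf2r. Grb10 moved to -0.11 ± 0.061, Peg10 to 0.013 ± 0.082 and Impact to 0.11 ± 0.060 (SE), and these 3 were no longer called.

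The members with positive values split under the same removal. Snrpn moved further up, to 0.59 ± 0.061, and its value as fitted minus this one was -0.34. Mest moved to 0.32 ± 0.060 (SE) and was then called higher. Cdkn1c turned to -0.094 ± 0.10 (SE), and its value as fitted minus this one was 0.48. In that fit 15.9% of all genes tested were lower and 19% higher, and what the relation with composition and length comes from was not tested.

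**Figure D3:**
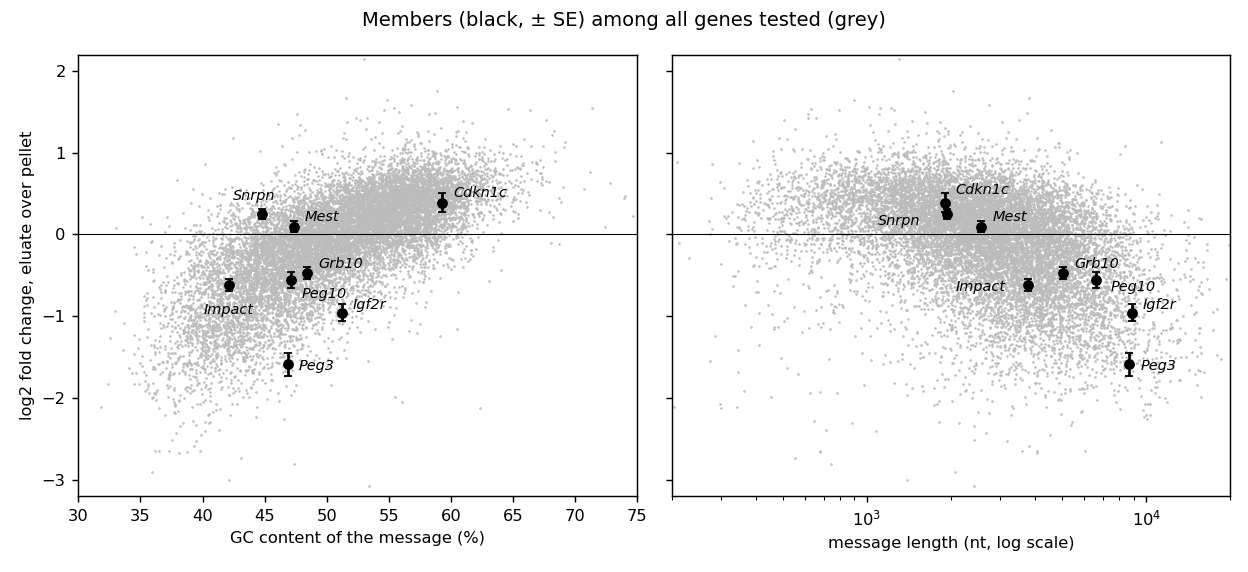
Log2 fold change (eluate over pellet) of all 13231 genes tested (grey) against G and C content of the message in percent and against message length in nt on a log axis, with 8 members in black (± SE). Peg3 lies below most genes of its composition, Snrpn above them, and the 5 lower members are the longest; 19 genes fall outside the axes.

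**Figure D4:**
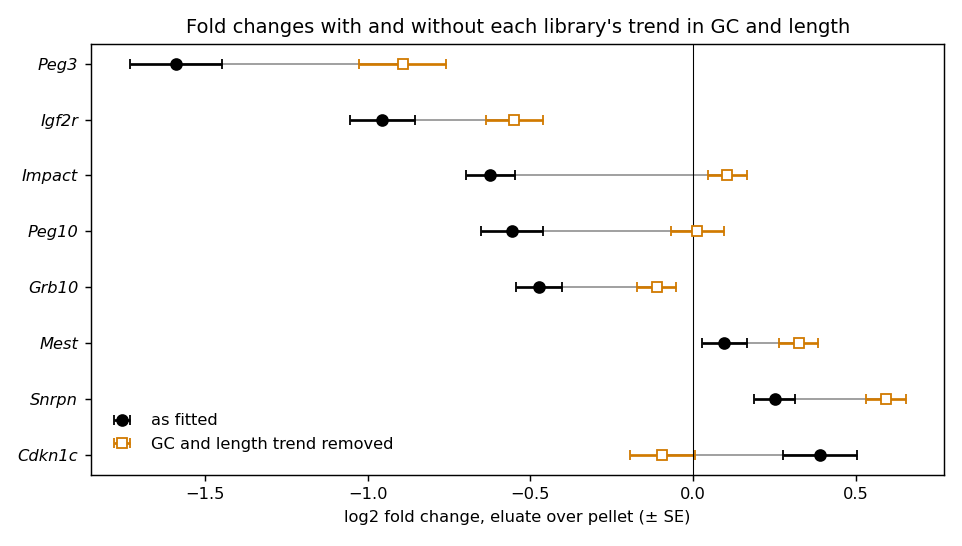
Log2 fold change (eluate over pellet, ± SE) of 8 members as fitted (black circles) and with each library's trend in G and C content and length removed (orange squares). Peg3 and Igf2r stay below 0, Impact and Peg10 move to the right of 0, Cdkn1c moves to the left of it and Snrpn moves from 0.25 to 0.59.

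The lists of other imprinted genes and those further below were chosen with earlier results of these data known, so counts and p-values in them are descriptions. The other imprinted genes did not share 1 direction. Of 64 listed, 40 were tested, and 7 were called higher and 14 lower in eluates, with a median log2 fold change of -0.11, against 24.5% higher, 28.2% lower and a median of 0.0035 over all genes tested. Without pellet 1 the counts were 8 and 14. Among paternally expressed coding genes 1 of 17 was higher and 5 lower (median -0.094), and among maternally expressed coding genes 6 of 18 were higher and 5 lower (median 0.078). Of 5 tested imprinted non-coding RNAs, 4 were lower and none was higher (median -0.75). Those 4 were Snhg14 and, from the Dlk1 domain alone, Meg3, Rian and Mirg, which may not be separate observations. With the trend removed the median of the 5 was -0.36 and the calls of Snhg14 and Meg3 ended. Among 22 further imprinted genes found in the files with too few counts to test were Ins2, Magel2, Plagl1, Kcnq1, Airn and Kcnq1ot1.

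**Figure D5:**
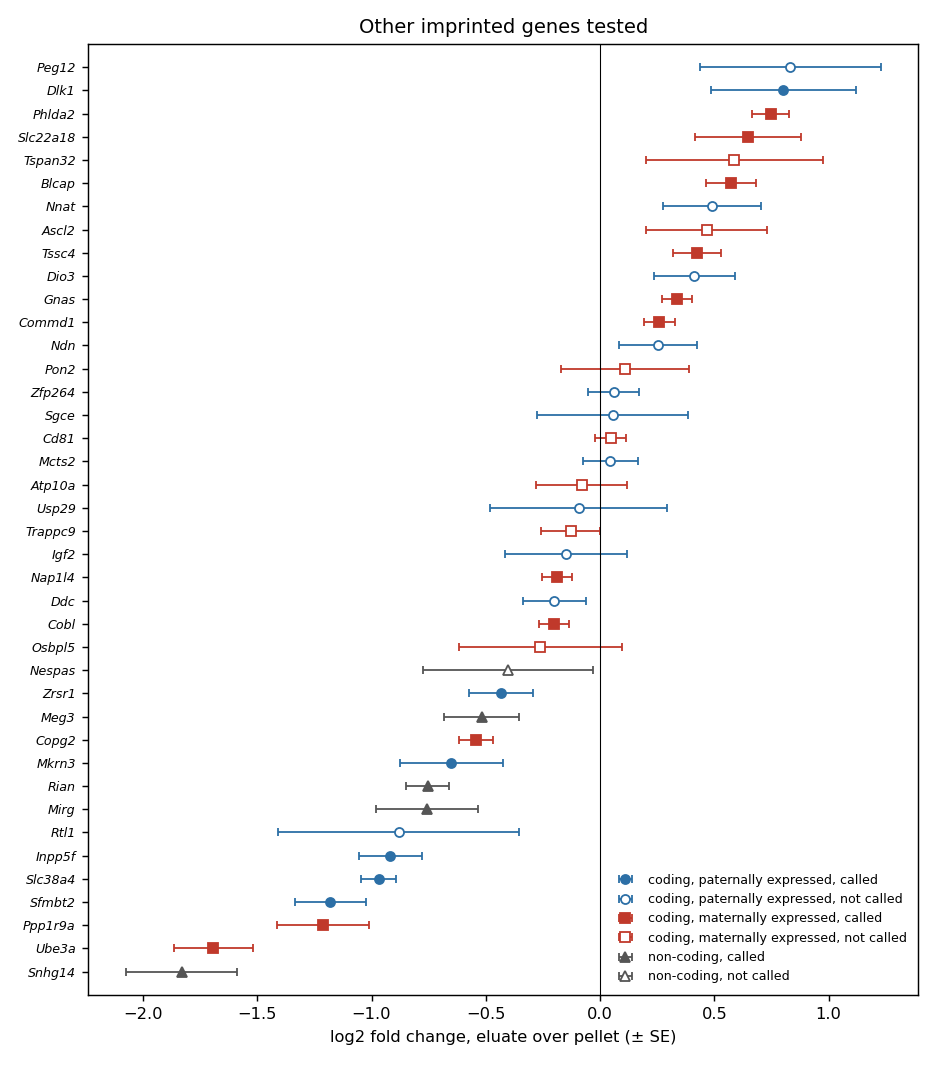
Log2 fold change (eluate over pellet, ± SE) of 40 imprinted genes other than the members, ordered by value, with coding genes expressed from the paternal copy as blue circles, from the maternal copy as red squares and non-coding RNAs as grey triangles; filled symbols are called at an adjusted p under 0.05. Values run from -1.83 for Snhg14 to 0.83 for Peg12. Of the 5 non-coding RNAs, 4 are called lower: Snhg14 and, from the Dlk1 domain alone, Meg3, Rian and Mirg. The median of the 5 is -0.75, or -0.36 when the trend in composition and length is removed.

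In the Snrpn domain, values lay on both sides of 0. Ube3a, a ubiquitin ligase, fell by 1.69 on the log2 scale (SE 0.17; edgeR adjusted p = 1.07e-05), with 13.95, 13.5 and 13.6 CPM in eluates against 31.4, 50.5 and 50.8 CPM in pellets. Snhg14, the long host transcript of the domain's small nucleolar RNAs, fell by 1.83 (SE 0.24; edgeR adjusted p = 3.76e-05), at 2.80 to 5.64 CPM in eluates against 10.7 to 16.7 CPM in pellets. Both were below all pellets in every eluate, and pellet 1 was the lowest pellet for each. With the trend in composition and length removed, Ube3a was at -0.34 (edgeR adjusted p = 0.00943) and the call of Snhg14 ended at -0.36 (edgeR adjusted p = 0.110). Mkrn3 fell by 0.65 (edgeR adjusted p = 0.0236), a call that was lost without eluate 1 (-0.57, adjusted p = 0.0887) or pellet 3 (-0.46, adjusted p = 0.131). With the trend removed Mkrn3 was at -0.60 and called (edgeR adjusted p = 0.0351). Ndn, at 0.25 ± 0.17 (SE), and Atp10a, at -0.081 ± 0.20, were not called, and Ndn was called at 0.78 with the trend removed. Peg12 was at 0.83 ± 0.40 (SE) and not called.

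In the Cdkn1c domain, Phlda2, which limits growth of the placenta in mice, rose by 0.75 (SE 0.081; edgeR adjusted p = 2.13e-06). It had 174, 172 and 192 CPM in eluates 1 to 3, against 119, 97.8 and 105 CPM in pellets 1 to 3, all eluates being higher. With the trend removed Phlda2 was at 0.21 (edgeR adjusted p = 0.0141). Tssc4 rose by 0.42 (SE 0.10; edgeR adjusted p = 0.00285) and was at -0.18 with the trend removed, where its call ended (edgeR adjusted p = 0.141). Slc22a18, a membrane transporter, was higher by 0.65 (edgeR adjusted p = 0.0283), but the call was lost without eluate 1, eluate 2, pellet 1, pellet 2 or pellet 3 (log2 fold changes of 0.59 to 0.68, edgeR adjusted p from 0.0524 to 0.0885) and with the trend removed. Nap1l4 was at -0.19 ± 0.065 (SE; edgeR adjusted p = 0.0220), and the call was lost without eluate 2, eluate 3 or pellet 2 (edgeR adjusted p = 0.0583 to 0.120). With the trend removed Nap1l4 was at -0.20 and called (edgeR adjusted p = 0.00454). Cd81, at 0.047 ± 0.068, Ascl2, at 0.47 ± 0.26, Tspan32, at 0.59 ± 0.39, and Osbpl5, at -0.26 ± 0.36 (SE), were not called. With the trend removed Cd81 was called lower, at -0.22 (edgeR adjusted p = 0.00382). Without pellet 1, Tspan32 was called at 1.12 (edgeR adjusted p = 0.0244).

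In the Mest domain, Copg2, a coat protein of vesicles, fell by 0.54 (SE 0.075; edgeR adjusted p = 2.13e-05), with 58.7 to 60.3 CPM in eluates against 82.4 to 90.4 CPM in pellets. The groups stood apart, on the other side of 0 from Mest, and with the trend removed Copg2 was at 0.035 and not called. The overlap with Mest on the opposite strand, described above, makes the Copg2 value uncertain too. In the Peg10 domain, Ppp1r9a fell by 1.21 (SE 0.20; edgeR adjusted p = 0.000112) and its call ended with the trend removed at -0.47 (edgeR adjusted p = 0.0564), while Sgce, at 0.055 ± 0.33, and Pon2, at 0.11 ± 0.28 (SE), were not called. In the Grb10 domain, Cobl was at -0.20 ± 0.066 (SE; edgeR adjusted p = 0.0179), lost without eluate 2 (-0.17, adjusted p = 0.114) or pellet 3 (-0.18, adjusted p = 0.0742) and with the trend removed (0.053), and Ddc was at -0.20 ± 0.14 (SE) and not called. In the Peg3 domain, Usp29, at -0.094 ± 0.39, and Zfp264, at 0.059 ± 0.11 (SE), were not called, beside -1.59 for Peg3.

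Igf2, the growth factor whose domain holds H19, was at -0.15 ± 0.27 (SE) and not called, at 2.09 to 3.40 CPM in eluates and 2.80 to 3.47 CPM in pellets, so both groups overlapped at this low level. Outside the members' domains, the amino acid transporter Slc38a4 fell by 0.97 (SE 0.077; edgeR adjusted p = 1.78e-07), with 72.8 to 77.3 CPM in eluates against 135 to 159 CPM in pellets, and stayed lower at -0.35 with the trend removed. Sfmbt2, a Polycomb-related protein, fell by 1.18 (SE 0.16; edgeR adjusted p = 1.31e-05) and was at -0.46 with the trend removed. Zrsr1 was at -0.43 ± 0.14 (SE; edgeR adjusted p = 0.0165), lost without eluate 3 (adjusted p = 0.0866) or pellet 2 (adjusted p = 0.0722) and with the trend removed. Mcts2, at 0.044 ± 0.12 (SE), was not called.

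The Dlk1 domain holds the non-coding RNAs Meg3, Rian and Mirg, and Nespas, of the Gnas domain and named here after its value was seen, was at -0.40 ± 0.37 (SE) and not called. Dlk1, a transmembrane Notch-family ligand, was higher by 0.80 (SE 0.32; edgeR adjusted p = 0.0433), with overlapping groups of 1.91 to 4.004 CPM in eluates and 1.603 to 1.92 CPM in pellets. That call was lost without eluate 1 (0.73, adjusted p = 0.130), eluate 3 (0.59, adjusted p = 0.185), pellet 2 (0.88, adjusted p = 0.0704) or pellet 3 (0.74, adjusted p = 0.112) and with the trend removed (0.33), and neither DESeq2 (adjusted p = 0.143) nor limma voom (adjusted p = 0.0958) made it. Rian fell by 0.75 (SE 0.093; edgeR adjusted p = 7.21e-06), though its matched transcripts hold 0.336 of the mean count in the authors' deposited table, and it was at -0.29 and still called with the trend removed. Meg3 was at -0.52 ± 0.16 (SE; edgeR adjusted p = 0.0142), lost without eluate 1, eluate 3 or pellet 2 (edgeR adjusted p = 0.0532 to 0.0647) and at 0.15 with the trend removed. Mirg was at -0.76 ± 0.22 (SE; edgeR adjusted p = 0.00946), lost without eluate 1 (adjusted p = 0.0592) or pellet 3 (adjusted p = 0.0726). With the trend removed Mirg was at -1.06 and called (edgeR adjusted p = 0.000262).

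Of 19 tested messages of factors that keep or erase imprints, 3 were higher and 13 lower in eluates, against 24.5% higher and 28.2% lower over all genes tested. Their median was -0.41, and -0.30 with the trend removed, where the medians over all genes tested were 0.0035 and 0.013. This list, too, was chosen with earlier results known, so its counts are a description. Arid4b, a chromatin protein, fell by 2.17 (SE 0.30; edgeR adjusted p = 0.000386), with 4.62, 5.002 and 4.004 CPM in eluates against 11.7, 25.1 and 24.98 CPM in pellets. Tet1, which oxidises methylated cytosine, fell by 1.66 (SE 0.15; edgeR adjusted p = 1.54e-05), with 26.7 to 39.2 CPM in eluates against 87.1 to 115 CPM in pellets, and for both genes pellet 1 was the lowest pellet. With the trend removed Arid4b was at -1.14 and Tet1 at -0.53, both still called. Trim28, the corepressor named above, rose by 0.30 (SE 0.081; edgeR adjusted p = 0.00549) and the methyltransferase Ehmt2 by 0.32 (SE 0.083; edgeR adjusted p = 0.00451). Both calls ended with the trend removed, at -0.056 for Trim28 and -0.0021 for Ehmt2, and on the log2(TPM + 1) scale. Dnmt1, also named above and given here after its value was seen, fell by 0.70 (SE 0.087; edgeR adjusted p = 8.17e-06). It was at -0.63 and still called with the trend removed.

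In the insulin-like growth factor and insulin list that surrounds Igf2r and Grb10, 8 of 28 tested genes were higher and 12 lower, against 24.5% higher and 28.2% lower over all genes tested (median -0.13, and 0.013 with the trend removed). The share of higher genes was close to that background. The binding proteins Igfbp4 and Igfbp2 rose by 1.03 (SE 0.15; edgeR adjusted p = 3.37e-05) and 0.56 (SE 0.072; edgeR adjusted p = 1.04e-05), and Igfbp2 was at -0.12 and not called with the trend removed, while Igfbp4 was at 0.87. Igfbp4 was not called on the log2(TPM + 1) scale (limma adjusted p = 0.0974) and is not listed in the authors' deposited table. Pik3r2, a regulatory subunit of phosphoinositide 3-kinase, rose by 0.63 (SE 0.098; edgeR adjusted p = 6.60e-05) and was at 0.21 and still called with the trend removed, whereas Pik3r1, another such subunit, fell by 1.23 (SE 0.23; edgeR adjusted p = 0.000415). Sos2, an exchange factor for Ras, fell by 1.12 (SE 0.19; edgeR adjusted p = 0.000147), and the calls of Sos2 and Pik3r1 ended with the trend removed, at -0.46 for both (edgeR adjusted p = 0.0565 for Sos2 and 0.0531 for Pik3r1).

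Among the partners of Impact, 1 of 9 tested was higher and 4 lower (median -0.22, and -0.25 with the trend removed), against 24.5% higher and 28.2% lower over all genes tested. Eif2ak4, the kinase Gcn2 itself, fell by 0.54 (SE 0.12; edgeR adjusted p = 0.000994), with 15.2 to 17.4 CPM in eluates against 23.0 to 25.3 CPM in pellets, and was at -0.32 and still called with the trend removed. Eif2s1, its substrate, fell by 0.54 (SE 0.084; edgeR adjusted p = 9.16e-05) but was called higher, at 0.27, with the trend removed. Abcf3, at -0.28 ± 0.099 (SE; edgeR adjusted p = 0.0254), lost its call without eluate 2, eluate 3, pellet 2 or pellet 3 (adjusted p = 0.0584 to 0.117). With the trend removed Abcf3 was at -0.36 and called (edgeR adjusted p = 0.00240). Drg2, at 0.20 ± 0.079 (SE; edgeR adjusted p = 0.0445), lost its call without eluate 1, eluate 2, eluate 3, pellet 2 or pellet 3 (adjusted p = 0.0676 to 0.155) and turned to -0.10, with no call, when the trend was removed. Atf4, the transcription factor downstream, was at 0.082 ± 0.064 (SE) and not called, with -0.23 and a call with the trend removed.

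Among the retrotransposon-derived relatives of Peg10, 3 of 6 tested were higher and none lower, against 24.5% higher and 28.2% lower over all genes tested. Their median was 0.34, beside -0.56 for Peg10. With the trend removed the median was 0.17, beside 0.013 ± 0.082 (SE) for Peg10, a value that cannot be told from 0. In that fit Rtl1 (-0.79) and Arc (-0.19) were below 0 and not called, and the other relatives were above it. Rtl8b rose by 0.97 (SE 0.22; edgeR adjusted p = 0.00155), with 5.70 to 8.45 CPM in eluates against 3.07 to 4.55 CPM in pellets, and its call ended with the trend removed (edgeR adjusted p = 0.209). Rtl8a was at 0.74 ± 0.30 (SE; edgeR adjusted p = 0.0482), lost without eluate 3 (0.39, adjusted p = 0.284), pellet 2 (0.61, adjusted p = 0.164) or pellet 3 (0.64, adjusted p = 0.151), and neither DESeq2 (adjusted p = 0.0959) nor limma voom (adjusted p = 0.0875) called it. Rtl6 was at 0.51 ± 0.16 (SE; edgeR adjusted p = 0.0150), lost without eluate 1 (adjusted p = 0.0517) or pellet 2 (adjusted p = 0.0653), and both calls ended with the trend removed. Arc was at 0.17 ± 0.095 (SE) and not called. The Rtl8 genes are near-identical copies, so their split is uncertain.

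The list set beside Snrpn held Sm core genes and Snrpb2, which is not an Sm core gene. Of these 8 genes, 4 were higher and 1, Snrpb2, was lower, against 24.5% higher and 28.2% lower over all genes tested. The median of the list was 0.25, and 0.42 with the trend removed. Snrpb, which encodes the protein that SmN most resembles, rose by 0.81 (SE 0.073; edgeR adjusted p = 4.01e-07), with 465, 456 and 450 CPM in eluates against 289, 253 and 238 CPM in pellets, and was at 0.24 and still called with the trend removed. Snrpf rose by 0.51 (SE 0.064; edgeR adjusted p = 8.78e-06) and Snrpd3 by 0.33 (SE 0.067; edgeR adjusted p = 0.000595), with values of 0.95 and 0.51 and calls kept when the trend was removed, while Snrpd3 lost its call on the log2(TPM + 1) scale (0.19, limma adjusted p = 0.0584). Snrpe was at 0.042 ± 0.081 (SE) and not called, and was called higher at 0.47 with the trend removed (edgeR adjusted p = 1.62e-07). Snrpb2, at -0.35 ± 0.13 (SE; edgeR adjusted p = 0.0381), had overlapping groups, lost its call without eluate 1, eluate 3, pellet 2 or pellet 3 (adjusted p = 0.119 to 0.153) and was called higher, at 0.45, with the trend removed.

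Among the relatives and partners of Cdkn1c, 5 of 12 were higher and 4 lower, against 24.5% higher and 28.2% lower over all genes tested. The median was -0.056, and turned to 0.20 with the trend removed. Cdk4 and Ccnd3, a kinase and cyclin of the G1 phase, rose by 0.53 (SE 0.068; edgeR adjusted p = 1.05e-05) and 0.73 (SE 0.075; edgeR adjusted p = 1.23e-06) and were at 0.31 and 0.25, both still called, with the trend removed. Ccne2 fell by 1.48 (SE 0.18; edgeR adjusted p = 8.20e-06), with 7.23 to 9.55 CPM in eluates against 17.3 to 27.7 CPM in pellets. Ccnd2 fell by 0.59 (SE 0.14; edgeR adjusted p = 0.00170) and Pcna, the replication clamp, by 0.34 (SE 0.064; edgeR adjusted p = 0.000367). With the trend removed the calls of Ccne2 (-0.26), Ccnd2 (-0.063) and Pcna (-0.12) ended (edgeR adjusted p = 0.129, 0.742 and 0.0659). Ccnd2 is not listed in the authors' deposited table.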

How the data were processed

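Poly(A) RNA of 3 eluates and 3 pellets was analysed, grouped by sample title. The submitters' processing notes name Salmon 1.10.3, STAR 2.7.11b, cutadapt 4.7 and DESeq2 1.44.0 with build GRCm39, and the sources used here give neither their roles nor their settings nor the annotation release. The authors' Salmon files hold, per the file headers, estimated counts and TPM per transcript. The authors' deposited table of the comparison gives, per its header, a mean normalized signal per gene, log2 fold changes with SE, a Wald statistic (a score) and p-values.

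Identifiers of the 84226 transcripts were looked up in GENCODE mouse release M21, which uses another build, so no coordinates are given. Of these, 76858 matched, and the others held 1.63% to 2.35% of a library's counts. Estimated counts were summed per gene, rounded and tested with edgeR 4.0.16 in R 4.3.3 (robust quasi-likelihood, TMM factors, default low-count filter, Benjamini-Hochberg adjustment over all genes tested, threshold 0.05), after a check on simulated data. The SE is the fold change divided by the square root of the F statistic. CPM are relative to TMM-scaled totals. G and C content and length are weighted by transcript counts, and the trend in both was taken as splines with 5 degrees of freedom. Chi-square values per gene were 3.14 to 18.2 within groups and 33.2 to 81.4 between them, and each library counts as its own sample. limma 3.58.1 and DESeq2 1.42.0 served as alternatives, and figures used matplotlib 3.10.9. The members and gene lists were chosen with earlier results of these data known. Named genes are, in each list, the gene of highest mean TPM, the 2 called genes with the highest and the 2 with the lowest fold change, and tested genes of a member's imprinted domain. Lists of imprinted genes follow their usual parental expression, which differs between tissues.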

Additional observations from a re-analysis of the deposited data

How the results depend on the processing

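The members' counts and directions were recomputed under 20 alternatives, of which keeping only transcripts of equal length and adding unmatched transcripts to the totals were chosen after seeing the data. Counts of calls moved by more than 1.5 times under 3 of them. On the log2(TPM + 1) scale 1912 of all genes, 0 members, 3 other imprinted genes and 11 genes of the partner lists were higher. With the G and C and length trend removed, 2105 of all genes, 2 members and 21 partner genes were lower and 4 other imprinted genes higher, and Peg10 (0.013), Impact (0.11) and Cdkn1c (-0.094) turned round. With that removal and the replicate block together, the counts were 2088, 2 and 21 lower and 4 higher, and those values 0.014, 0.10 and -0.095. Peg3 and Igf2r were lower and called under all 20 alternatives, and the causes of the other changes were not tested.

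Leaving out 1 library at a time gave 2615 to 3722 genes higher and 3224 to 4039 lower over the whole table, 5 members lower and 2 higher each time, 5 to 8 other imprinted genes higher and 11 to 14 lower, and 21 to 24 partner genes higher and 29 to 35 lower. Deviations of same-numbered libraries correlated at 0.0698, 0.151 and -0.0102. Eluates 1 and 2 correlated best with the pellet of their own number, and eluate 3 with pellet 1 (0.111). With 3 libraries per group these correlations cannot decide whether the numbers mark pairs, and the main fit leaves the number out. With the number as a replicate block, 3306 genes were higher and 3770 lower, against 3241 and 3736 without it. The members' calls stayed at 2 and 5. Of the list genes named above, Dlk1 (adjusted p = 0.0606) and Rtl8a (adjusted p = 0.0622) were not called under the replicate block. DESeq2 did not call Dlk1, Zrsr1, Mkrn3, Slc22a18, Meg3, Abcf3, Drg2, Rtl6 and Rtl8a (adjusted p = 0.0506 to 0.151). The log2(TPM + 1) scale did not call Dlk1, Tssc4, Meg3, Trim28, Ehmt2, Igfbp4, Drg2, Rtl6, Rtl8a, Snrpd3 and Ccnd2 (limma adjusted p = 0.0584 to 0.533). Upper-quartile factors did not call Cobl, Nap1l4, Abcf3 and Snrpb2 (edgeR adjusted p = 0.0858 to 0.220) and called Atf4 (edgeR adjusted p = 0.0382) and Arc (edgeR adjusted p = 0.0344) higher. Library totals, no count filter and the effective-length offset ended calls of Cobl, Nap1l4, Drg2, Slc22a18, Dlk1, Rtl8a and Snrpb2 (edgeR adjusted p = 0.0535 to 0.0664). Scaling moved the median of all genes by at most 0.091, with upper-quartile factors. Assigning transcripts with an older annotation alone was not run, since no second source of names was used here. Peg3 rests on 67 to 83 counts per eluate, and H19 and much of Zdbf2 rest on the authors' deposited table.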
